A study of Mus musculus with 32 samples.

Results

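The genes at the centromeric end of mouse chromosome 18 were followed in the hippocampus of Sicd2-ISCL4 subcongenic mice (ISCL4) and of their FVB-like littermates. The stretch was defined as every exon-level probe set with exactly 1 annotated gene symbol whose gene starts below 35 Mb on chromosome 18 in the GRCm38 annotation, leaving out 2 genes that are not reported here. It held 1565 of the 188590 probe sets of the exon-level table, in 113 of 15754 genes. RNA of 16 male mice aged 6 to 8 weeks, 8 ISCL4 and 8 FVB-like littermates, was measured on exon arrays, with both hippocampi of a mouse combined and 1 array per mouse. Sicd2 names a locus on chromosome 15 that affects how susceptible mice are to neuronal death after seizures. A subcongenic line carries a short donor segment of such a locus in the genome of a host strain. FVB-like is the labels' own name for the littermates. The labels give no donor strain, no treatment and no seizure for either group, and all animals share the same sex, tissue and age range. Chromosome 18 is not the chromosome of the locus, and whether ISCL4 mice carry donor sequence on it was not tested. The question for the proximal end of chromosome 18 was whether any gene there differed between the groups. The stretch was picked when earlier results of this same comparison were known, so counts over its members are given as descriptions beside the same counts over all features.

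A chromosome stretch is not a pathway, and its genes share position rather than function. The proximal genes include a cluster of desmosomal cadherins, the adhesion proteins of skin and other epithelia, whose members are little used in brain. They also include neuronal genes such as Camk4, a calcium/calmodulin-dependent kinase that phosphorylates the transcription factor CREB in neuronal nuclei, Syt4, a synaptotagmin of neuronal vesicles, and Celf4, an RNA-binding protein of excitatory neurons. Ttr, the thyroid hormone and retinol carrier made in bulk by the choroid plexus, also lies there. An exon array measures a gene through several probe sets, each a short piece of an exon, so that a difference can be read both over a whole gene and in single pieces of it. All values below are log2 signal, and all differences are ISCL4 minus FVB-like on that scale with the standard error (SE) of the fit.

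Array medians lay between 7.74 and 7.78 over probe sets and between 7.29 and 7.34 over gene-level features, and no arrays were identical. Probe sets numbered 1 to 48 per gene (median 12, most in Myo7b), and 108 genes had at least 4. Of the 1565 probe sets, 388 (24.8%) had a mean signal under 6.20, the 25th percentile of the table, and are called dim here. Without a detection call a dim value can be background. All probe sets of 5 genes were dim. The gene-level table, the authors' own summary of the same arrays, held 110 features for 109 of the 113 genes, without Dsg1b, Dsg1c, Mkx and Rbbp8. The 5 markers of hippocampal neurons averaged between 9.69 and 10.03 in ISCL4 mice and between 9.77 and 10.04 in FVB-like mice, above the dim range.

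No proximal gene or probe set passed the test. With limma and an adjusted p under 0.05 over the whole table, 0 of 1565 probe sets were called, where 47 of all 188590 were (0.0249%), and where the fit with the replicate block called 30 (0.0159%) in all and 0 in the stretch. The count was also 0 of 110 gene-level features, against 0.292% of all features (0.107% with the replicate block), and 0 of 113 genes summarised by the median of their probe sets, against 0.0571% of all genes (0.0127% with the replicate block). The smallest adjusted p was 0.181 for a probe set, 0.0540 for a gene-level feature and 0.114 for a gene median. Further along the same chromosome, 19 of 1959 probe sets between 35 and 65 Mb were called in 10 genes, and 6 of 1060 from 65 Mb to the end in 4 genes. At gene level those stretches held 12 called features of 164 and 2 of 86. The difference in call rate between the stretches was not tested, since the limits were drawn with these calls known. In gene order the nearest gene with a called probe set was Ndufa2, 27 genes beyond Hspa9, the last proximal gene.

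At a looser threshold the proximal probe sets were more often lower than higher in ISCL4 mice. At an unadjusted p under 0.05, 209 probe sets (13.4%) passed, against 10.2% of the table. Of these, 127 (8.12%) were lower in ISCL4, against 5.07% of all probe sets, and 82 (5.24%) were higher, against 5.16%. At gene level 21 of 110 features (19.1%) passed, against 14.4% of all features. Of these 15 (13.6%) were lower, against 6.89% of all, and 6 (5.45%) higher, against 7.51%. By gene medians 18 of 113 (15.9%) passed, against 11.5%, with 11 (9.73%) lower, against 5.27%, and 7 (6.19%) higher, against 6.18%. Without regard to any p, 862 probe sets (55.1%) were lower in ISCL4, against 48.9% of the table, as were 64 of 110 gene-level features (58.2%), against 47.9%, and 60 of 113 gene medians (53.1%), against 48.1%. The same lean was seen in the neighbouring stretch from 35 to 65 Mb, where 9.75% of probe sets were lower at an unadjusted p under 0.05 and 6.23% higher, and 23 of 164 gene-level features were lower and 14 higher. From 65 Mb to the end, 7.36% of probe sets were lower at that threshold and 7.36% higher. Of 86 gene-level features there, 7 were lower and 10 higher. Without regard to any p, 50.8% of its probe sets and 57.0% of its gene-level features were lower. Probe sets of 1 gene and genes of 1 mouse share their RNA, so these shares are not counts of independent events.

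The size of the differences was small. The median over the 1565 probe sets was -0.02, with the 5th and 95th percentiles at -0.31 and 0.32, and the median over the whole table was 0.0037. The median SE was 0.115 and the median half-width of the 95% interval 0.245. At a probe set of that precision, a smaller difference could not be told from the spread between mice. Precision varied, and some smaller differences had intervals without 0, such as Apc probe set 4972331 at -0.16 (95% interval -0.28 to -0.04). Differences over 0.5 in either direction occurred in 53 probe sets and over 1 in 4. Over single mice, the median of the members, each centred on its mean over all mice, was -0.05 to 0.02 (median -0.01) in ISCL4 and -0.03 to 0.05 (median -0.01) in FVB-like mice, and the groups overlapped.

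**Figure D1:**
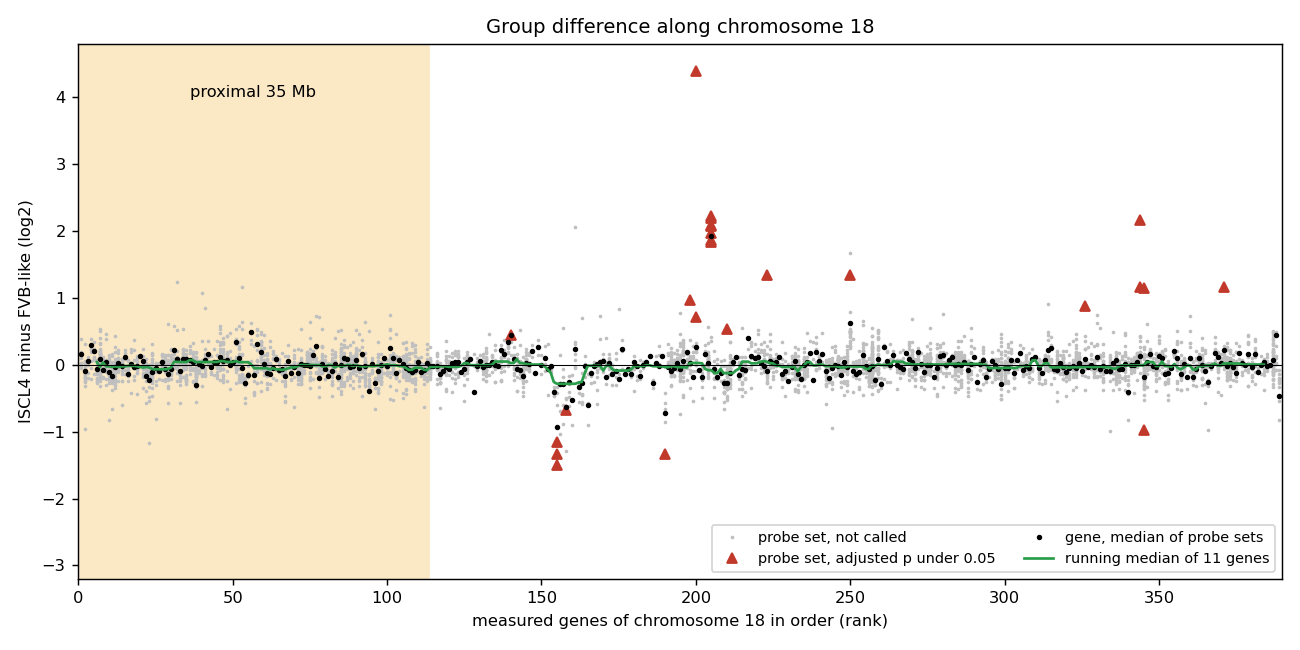
Group difference along chromosome 18, with the measured genes in order on the x axis (rank) and ISCL4 minus FVB-like on the y axis (log2). Grey points are probe sets, triangles probe sets with an adjusted p under 0.05, black points gene medians and the line a running median of 11 genes. The shaded proximal stretch of 113 genes holds no triangle, and the running medians of windows within it lie between -0.0758 and 0.0704.

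Along gene order the running median stayed within 0.08 of 0. In windows of 11 neighbouring genes the median difference was lowest, at -0.08, from Dtna to Elp2 and highest, at 0.07, from Cables1 to Zfp521, and 74 of 103 windows were below 0. Windows whose first gene lay from Lyzl1 to Esco1 were all below 0. Those from Snrpd1 to Dsg4 were all above 0, and those from Dsg3 to Camk4 all below. Adjacent windows share most of their genes, so windows are not independent. Of the 108 genes with at least 4 probe sets, Nrep and Ttr were lower in every probe set (1.85%, against 3.38% of all such genes) and Rnf125 and Ss18 higher in every one (1.85%, against 2.66%). At the 35 Mb limit itself, the last genes inside were Reep2, Etf1 and Hspa9, with median differences of -0.11, -0.08 and 0.03. The first outside, Ctnna1, Lrrtm2 and Sil1, all differed by -0.02.

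Camk4, Nrep and Apc were among the genes with the smallest p at gene level and lower values in ISCL4. They are near neighbours, separated in gene order by Stard4 and Epb41l4a alone, while Galnt1, whose gene-level p was as small, lies elsewhere in the stretch. Camk4 was the only gene of the stretch whose median did not overlap between the groups, against 0.0762% of all genes. Its median over 13 probe sets was 9.11 at the lowest, 9.47 at the median and 9.64 at the highest in ISCL4 mice, against 9.65, 9.79 and 10.03 in FVB-like mice. Every ISCL4 mouse thus lay below every FVB-like mouse in this median. Its lowest and highest ISCL4 values and its highest FVB-like value equalled those of probe set 4581668, where the groups overlapped. That probe set had the largest drop of the 13, at -0.40 (SE 0.10, limma's adjusted p = 0.260). The gene medians had means of 9.44 ± 0.18 in ISCL4 and 9.82 ± 0.15 in FVB-like mice (SD, n = 8 each). They gave a difference of -0.38 (SE 0.08, 95% interval -0.56 to -0.21), or 1.30-fold lower, with limma's adjusted p = 0.114. The arrays fall into sets by their naming, and the difference was -0.43 in array set A (replicates 1 to 4) against -0.34 for array set B (replicates 5 to 8). With trend and robust moderation the adjusted p of the Camk4 median was 0.0282, in a fit that called 0.273% of all genes.

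Most probe sets of Camk4 shared a sign. Of the 13, 12 were lower in ISCL4, 9 of them at an unadjusted p under 0.05, and the median of the 13 differences was -0.26. Probe set 4491734 was the only proximal probe set without overlap, against 0.0546% of the table, with 7.58, 7.99 and 8.06 in ISCL4 mice (lowest, median, highest) and 8.10, 8.31 and 8.53 in FVB-like mice. Its difference was -0.37 (SE 0.09, adjusted p = 0.220). The exception was probe set 4881422, at a mean of 3.98 in ISCL4 and 3.46 in FVB-like mice, in the dim range and higher by 0.51 in ISCL4. The gene-level feature of Camk4 had 9.01, 9.11 and 9.30 in ISCL4 mice against 9.14, 9.34 and 9.45 in FVB-like mice, where the groups overlapped, and differed by -0.20 (SE 0.05, adjusted p = 0.118).

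Nrep, a small protein expressed in regenerating neurons, had the smallest adjusted p of the stretch at gene level. Its feature read 9.56, 9.71 and 10.01 in ISCL4 mice (lowest, median, highest) against 9.92, 10.07 and 10.23 in FVB-like mice. All 8 ISCL4 mice were below the FVB-like median and 6 were below every FVB-like mouse. The difference was -0.31 (SE 0.06, 95% interval -0.44 to -0.18), or 1.24-fold lower, with limma's adjusted p = 0.0540. Mice of array set A gave -0.14 and those of array set B -0.48, and the test of that inequality did not pass (interaction, adjusted p = 0.493). All 7 probe sets were lower in ISCL4, 6 at an unadjusted p under 0.05. Probe set 5530547 differed most, with 6.47, 7.70 and 7.92 in ISCL4 mice against 7.69, 8.16 and 8.52 in FVB-like mice, a difference of -0.67 (SE 0.18, adjusted p = 0.290). The gene-level call depended on the setting. The adjusted p was 0.0193 with trend and robust moderation (0.609% of all features called) and 0.0273 after leaving out features under the 25th percentile (0.668% called). It was 0.0349 without FVB-like replicate 1 (0.275% called), 0.0447 without ISCL4 replicate 2 (0.155% called) and 0.116 with the replicate block.

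Apc, the scaffold that marks beta-catenin for destruction and binds microtubule ends, showed smaller differences of low spread. The gene-level feature had 10.35, 10.46 and 10.57 in ISCL4 mice against 10.53, 10.60 and 10.69 in FVB-like mice. All ISCL4 mice were below the FVB-like median, and the difference was -0.14 (SE 0.04, adjusted p = 0.124). Mice of array set A gave -0.22 and those of array set B -0.05 (interaction, adjusted p = 0.668). Of its 16 probe sets 14 were lower in ISCL4, 8 at an unadjusted p under 0.05, with a median of the 16 differences of -0.17. The median of the signals themselves differed by -0.01 (SE 0.08, adjusted p = 0.987). Probe set 4748370, which differed by 0.16, was among the middle pair of the 16 signals in 12 of 16 mice. Probe set 4544905 had the smallest p of the stretch, with 10.25, 10.46 and 10.61 in ISCL4 mice against 10.39, 10.71 and 10.96 in FVB-like mice. It differed by -0.26 (SE 0.06, adjusted p = 0.181, and 0.0414 with trend and robust moderation, which called 0.145% of the table). Between these genes, Stard4, a cholesterol transfer protein, differed by 0.01 and Epb41l4a, of the band 4.1 family, by -0.09 (gene medians).

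**Figure D2:**
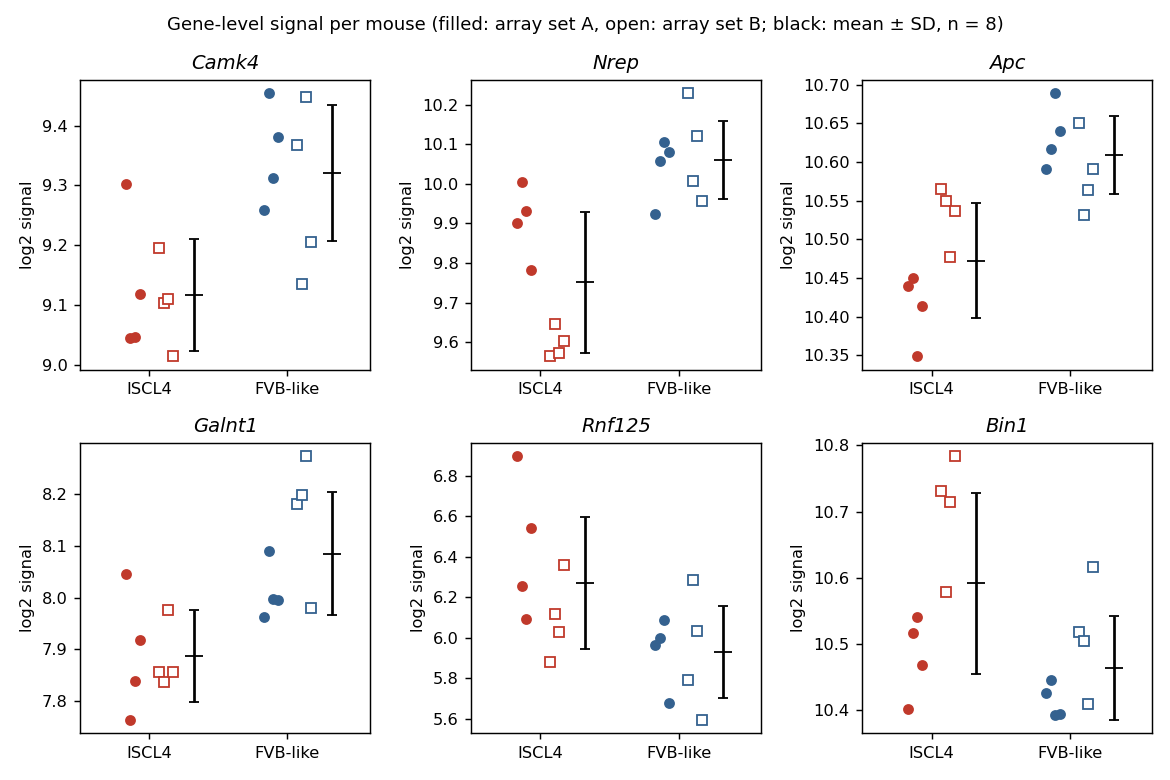
Gene-level log2 signal of 6 proximal genes in each mouse, ISCL4 left of FVB-like in each panel, with filled circles for array set A, open squares for array set B and the mean ± SD in black (n = 8 each). Nrep, Apc and Camk4 lie lower in ISCL4, and the groups overlap in all 6 panels.

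**Figure D3:**
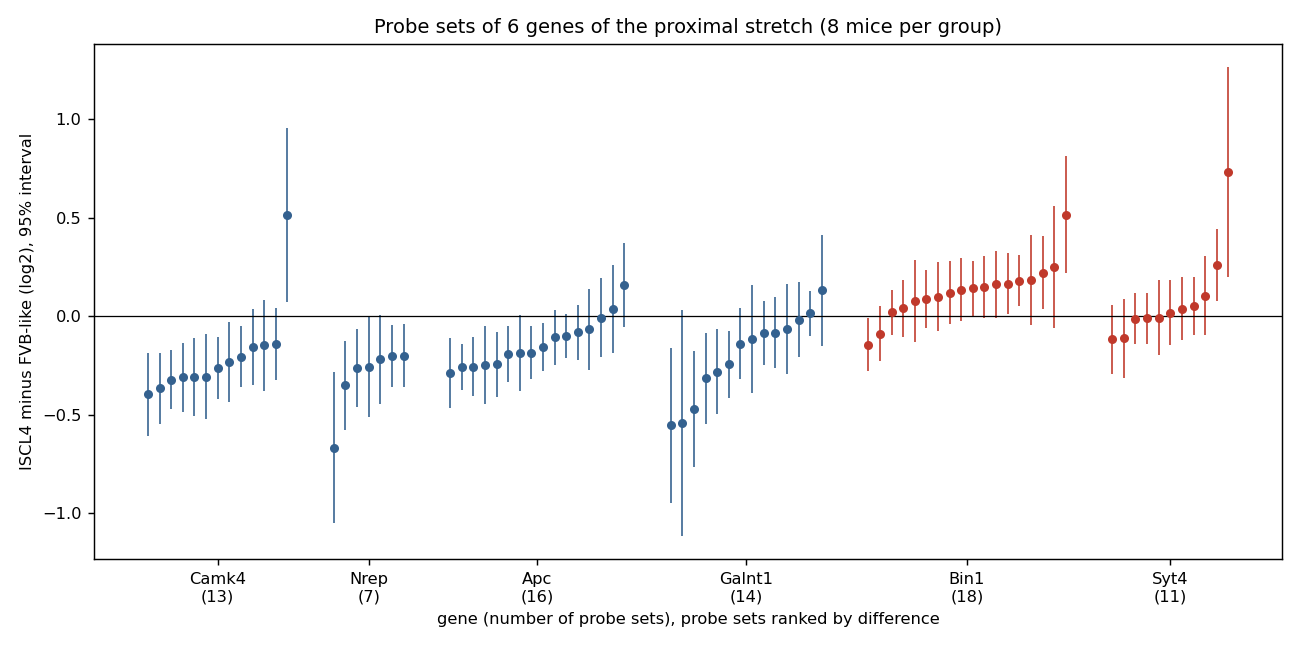
ISCL4 minus FVB-like (log2) for every probe set of 6 proximal genes, ranked within the gene, with 95% intervals of the fit (8 mice per group). Blue marks genes whose median probe set difference is below 0 and red those above. In Camk4, 12 of 13 probe sets lie below 0, and in Syt4 a single probe set at 0.73 stands off from the rest.

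Among other genes with the smallest p at gene level and lower values in ISCL4 was Galnt1, an enzyme that starts O-linked glycosylation. It had 7.76, 7.86 and 8.05 in ISCL4 mice against 7.96, 8.04 and 8.27 in FVB-like mice, a difference of -0.20 (SE 0.05, adjusted p = 0.118), with lower values in 12 of 14 probe sets. Esco1, an acetyltransferase of cohesin, differed by -0.23 at gene level (adjusted p = 0.145) and by -0.04 as a gene median, a value that ran from -0.09 without ISCL4 replicate 1 to -0.002 without ISCL4 replicate 2. Usp14, a deubiquitinase of the proteasome, differed by -0.23 (adjusted p = 0.244), with 17 of 19 probe sets lower. Kif5b, the heavy chain of the kinesin that carries cargo along axons and dendrites, differed by -0.11 (adjusted p = 0.263), with 21 of 27 probe sets lower, 7 at an unadjusted p under 0.05. In each of these genes the groups overlapped.

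Higher values in ISCL4 were fewer. Bin1, a membrane-bending adaptor of endocytosis, had 10.40, 10.56 and 10.78 in ISCL4 mice against 10.39, 10.44 and 10.62 in FVB-like mice. It differed by 0.13 (SE 0.04, adjusted p = 0.185). Higher values were seen in 16 of 18 probe sets, 5 at an unadjusted p under 0.05. Rnf125, a ubiquitin ligase, had the largest positive difference of gene medians in the stretch. Its median signal was 5.86, 6.20 and 6.84 in ISCL4 mice against 5.11, 5.80 and 6.22 in FVB-like mice. All 8 ISCL4 mice exceeded the FVB-like median, and the difference was 0.49 (SE 0.14, adjusted p = 0.228). Of its 4 probe sets 3 were dim. At gene level Rnf125 differed by 0.34 (adjusted p = 0.244), Ccdc178 by 0.16, Celf4 by 0.09 and Rmc1, of a complex that acts on late endosomes, by 0.09. Of the 23 probe sets of Ccdc178, 19 were dim.

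The gene median and the gene-level feature had the same sign in 91 of 108 genes and could differ in size. Syt4 differed by 0.29 as a median (adjusted p = 0.260) and by 0.09 at gene level (adjusted p = 0.367). Its 11 probe sets had a median difference of 0.02. In 13 of 16 mice the median signal was that of probe set 4813598, which differed by 0.26 (SE 0.09, adjusted p = 0.368), and in 3 that of probe set 4510364, which differed by 0.73 (SE 0.25, adjusted p = 0.377). Dsg4 likewise differed by 0.34 as a median and 0.09 at gene level, at a level of 4.72 in ISCL4 and 4.38 in FVB-like mice, in the dim range. Among the other gene medians, Osbpl1a, an oxysterol-binding protein relative, differed by -0.30, with 20 of 28 probe sets lower. Slc25a46, an outer mitochondrial membrane protein, differed by -0.20 and Polr2d, a subunit of RNA polymerase II, by -0.17. On the other side stood Mep1b with 0.31 (0.20 without FVB-like replicate 2), Lyzl1 with 0.30, Pkd2l2 with 0.25, Cables1, an adaptor of the kinase Cdk5, with 0.23, and Map3k8 with 0.20. Mep1b, Lyzl1 and Pkd2l2 were dim genes, with most probe sets under 6.20, and 8 of the 15 probe sets of Mep1b were lower. Limma's adjusted p-values of the gene medians from Osbpl1a to Map3k8 were between 0.303 and 0.567. At gene level Osbpl1a, Slc25a46 and Polr2d differed by -0.07 each. Mep1b there differed by 0.07, Lyzl1 by 0.12, Pkd2l2 by 0.08, and Cables1 and Map3k8 by 0.13.

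Grouped by role, no list had a called gene, and the medians of gene differences stayed within 0.10 of 0, beside 0.01 for all genes. The lists were chosen with earlier results of these data known. Cytoskeleton, motor and adhesion partners had 8 of 10 genes lower, with a median of -0.10, and 30 of 251 probe sets were lower at an unadjusted p under 0.05, against 5.07% of the table, and 10 higher (3.98%), against 5.16%. The lowest of them was Kif5b at -0.16 and the highest Bin1 at 0.07, as gene medians. The desmosomal and classical cadherins had 7 of 9 genes higher, with a median of 0.06, and 13 of 119 probe sets (10.9%) were higher at an unadjusted p under 0.05, against 5.16% of the table, and 1 (0.84%) lower, against 5.07%. Of these probe sets 83 were dim. Cdh2, the neural cadherin of synapses, whose 16 probe sets were all above the dim range, differed by 0.04.

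Neuronal RNA binding, vesicle and signalling genes split evenly by gene median, with 5 higher and 5 lower, from Camk4 at -0.38 to Syt4 at 0.29. Of their 117 probe sets 15 (12.8%) were lower at an unadjusted p under 0.05, 9 of them in Camk4, and 7 (5.98%) were higher. Transcription and chromatin genes had 13 of 21 lower, with a median of -0.04. In that list 17 of 281 probe sets (6.05%) passed an unadjusted p under 0.05 in each direction, against 5.07% lower and 5.16% higher in the table. Endosome, lysosome and lipid genes had 5 of 8 lower, and Npc1, which exports cholesterol from lysosomes, differed by 0.09. In that list 15 of 144 probe sets (10.4%) were lower at an unadjusted p under 0.05 and 9 (6.25%) higher. Ubiquitin and protein quality genes had 4 in each direction, with a median of -0.02. At the same threshold 10 of their 113 probe sets (8.85%) were lower and 4 (3.54%) higher. Wnt and TGF-beta signalling genes had 3 in each direction, with a median of 0.00. Of their 64 probe sets 10 (15.6%) were lower at that threshold, 8 of them in Apc, and 4 (6.25%) were higher.

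**Figure D4:**
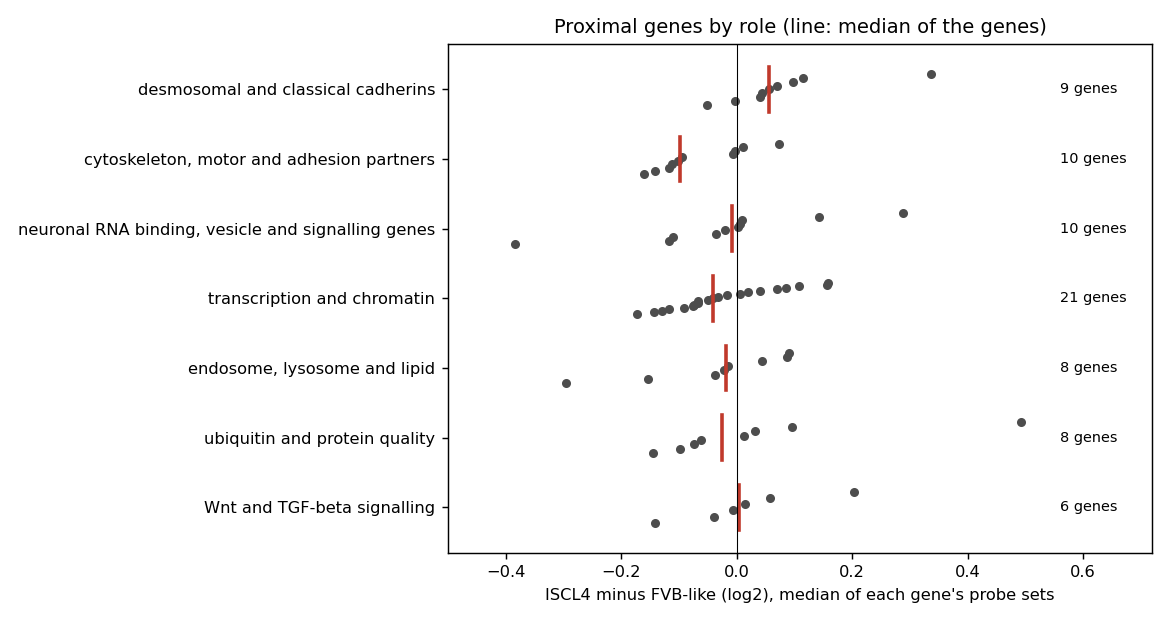
Median difference of each proximal gene in a role list (x axis, ISCL4 minus FVB-like, log2), by role list on the y axis, with the median of each list as a red line. Proximal genes outside the lists are not shown. The list medians lie between -0.10 and 0.06, and single genes between -0.38 and 0.49.

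Ttr had the largest spread between mice of the 110 gene-level features of the stretch, with a residual SD of 0.745, and Chst9 came next with 0.318. Its signal was 10.52, 12.16 and 13.15 in ISCL4 mice against 11.27, 12.52 and 13.04 in FVB-like mice, with an SD of 0.88 in ISCL4 and 0.58 in FVB-like mice. The difference was -0.33 (SE 0.34, 95% interval -1.05 to 0.40, adjusted p = 0.712), and the groups overlapped over nearly their whole range. Single mice moved it, to -0.12 without ISCL4 replicate 8, -0.16 without ISCL4 replicate 3 and -0.53 without FVB-like replicate 4. All 7 probe sets were lower in ISCL4, none at an unadjusted p under 0.05. The 14 measured choroid plexus markers other than Ttr had a mean difference of -0.15, with 14 of 14 below 0 and 0 called. Their mean was 6.13 to 7.83 (median 6.71) in ISCL4 mice and 6.27 to 7.63 (median 7.08) in FVB-like mice. In tissue RNA, fewer cells of a type and less RNA per cell cannot be told apart.

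Markers of other cells were read as well, with none called by limma. Markers of a cell type, those of the choroid plexus included, share the RNA of the same mice. Counts of markers in a direction are therefore not counts of independent events. The 9 measured oligodendrocyte markers were all lower in ISCL4, with a mean difference of -0.30 and 0 called, at 9.05 to 9.72 (median 9.26) in ISCL4 mice and 9.38 to 9.97 (median 9.53) in FVB-like mice. Gpr17, a receptor of immature oligodendrocytes and a proximal gene, differed by -0.18 (gene median, SE 0.11, adjusted p = 0.554), and by -0.11 without ISCL4 replicate 2. Markers of meninges (7 of 7) and striatum (5 of 5) were lower too, with a mean difference of -0.17 in each list. Meninges markers averaged 7.70 to 8.26 in ISCL4 mice and 7.78 to 8.42 in FVB-like mice. Striatum markers averaged 7.94 to 8.73 (median 8.15) in ISCL4 mice and 8.03 to 9.35 (median 8.35) in FVB-like mice. The 9.35 was FVB-like replicate 2 alone, with the next FVB-like mouse at 8.42. Of the 5 markers of hippocampal neurons 4 were lower, with a mean difference of -0.05. Endothelial markers were lower in 3 of 4 (mean difference -0.06). Astrocyte markers were higher in 3 of 5, microglial markers in 4 of 5 and thalamic markers in 3 of 4, with mean differences of 0.03, 0.05 and 0.01. The part of these marker differences in the values of Ttr, Gpr17, Camk4, Nrep or Apc was not tested.

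**Figure D5:**
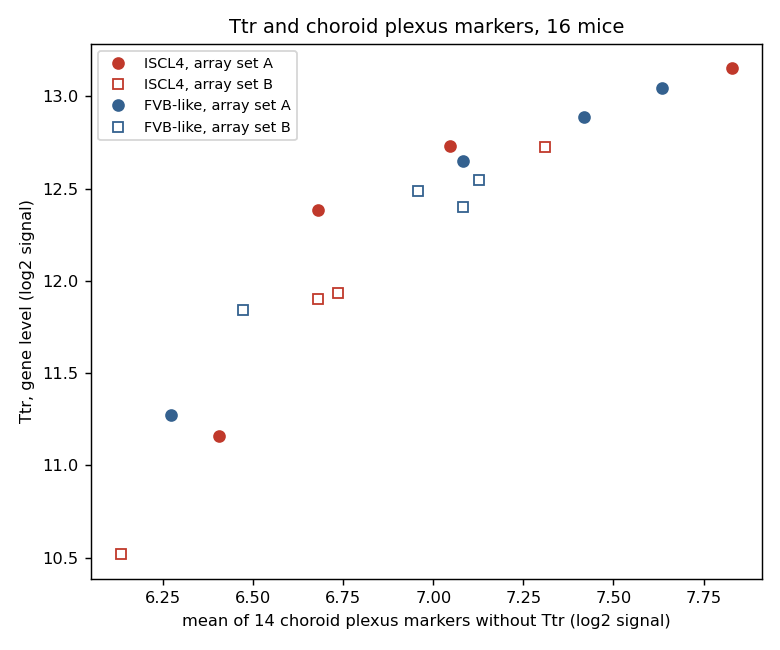
Ttr at gene level (y axis, log2 signal) against the mean of 14 other choroid plexus markers (x axis, log2 signal) in 16 mice, ISCL4 in red and FVB-like in blue, with filled circles for array set A and open squares for array set B. The groups intermingle, and the highest and the lowest Ttr values are both from ISCL4 mice.

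Among single probe sets, the largest differences came with large standard errors. Of the 10 largest in each direction that kept their sign in both array sets, the highest were Tmem241 at 1.24 (SE 0.46), Dsg2 at 1.16 (SE 0.47), Hrh4, the histamine H4 receptor, at 1.07 (SE 0.35) and Zfp521 at 0.85 (SE 0.26). The lowest were Usp14 at -1.17 (SE 0.44), Cul2, a scaffold of ubiquitin ligases, at -0.96 (SE 0.44), Arhgap12 at -0.83 (SE 0.30) and Esco1 at -0.81 (SE 0.23). Limma's adjusted p of all 20 was at least 0.269. The probe sets of Tmem241, Dsg2, Usp14, Cul2 and Esco1 named here were dim. For Tmem241 the probe set read 4.27, 5.01 and 6.41 in ISCL4 mice against 2.25, 3.82 and 5.59 in FVB-like mice, and for Usp14 2.52, 4.26 and 5.66 in ISCL4 mice against 4.30, 5.51 and 6.63 in FVB-like mice. The groups overlapped in both, and the gene medians differed by 0.09 in Tmem241 and -0.22 in Usp14. Those of Dsg2, Hrh4 and Zfp521 differed by -0.05, -0.01 and 0.07. In Cul2, Arhgap12 and Esco1 the gene medians differed by -0.10, -0.10 and -0.04.

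Other probe sets had smaller differences and lower p-values. A probe set of Zeb1, a repressor of epithelial genes, had 7.12, 7.27 and 7.50 in ISCL4 mice against 6.61, 6.89 and 7.19 in FVB-like mice, with 7 of 8 ISCL4 mice above every FVB-like mouse. It differed by 0.39 (SE 0.09, adjusted p = 0.204), while the gene's 11 probe sets had a median difference of -0.01. A probe set of Wdr33, part of the complex that cleaves and polyadenylates transcripts, differed by -0.46 (SE 0.11, adjusted p = 0.242), and 20 of the gene's 30 probe sets were lower. The Wdr33 probe set at -0.46 was dim. Ccny, cyclin Y, had a probe set at -0.43 and Ercc3, a helicase of transcription and DNA repair, one at 0.35 (adjusted p = 0.238 and 0.260).

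Whether the group difference itself differed between the 2 array sets, and how far the members differed between those sets, did not enter the choice of the stretch. The interaction passed in 0 of 1565 probe sets and in 0 of the 188590 of the table (0.0%), and at an unadjusted p under 0.05 in 106 (6.77%), against 6.22%. Array set B differed from array set A in 610 proximal probe sets (39.0%), against 38.7% of the table, and in 55 of 110 gene-level features, against 46.4%. By gene medians it differed in 36 of 113 (31.9%), against 37.9% of the genes on other chromosomes. The largest such differences of gene medians, B minus A, were 0.68 in Map3k2, a kinase upstream of MAP kinases, and 0.65 in Etf1, the factor that ends translation. Both differed little between the groups, by -0.04 and -0.08. Over the 1565 members the median size of the difference was 0.251 between array sets and 0.112 between groups, and each set held 4 mice of either group.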

How the data were processed

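Exon array values of 16 mice were used as the authors deposited them: log2 signal per exon probe set and per gene. The submitters' processing notes name Partek 6.6, RMA and build mm9; which step used which is not given in the sources used here. Such normalization usually equalises arrays, which hides shifts shared by all probes, and no detection call was used. Of 188590 probe sets, 179269 carried 1 symbol in the platform annotation, 1325 several and 7996 none, and 178899 matched RefSeq genes of GRCm38.p6, which gave names and order only.

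Groups came from sample titles. Labels state that a replicate is a mouse. Array files follow 2 naming schemes (array set A, replicates 1 to 4; array set B, replicates 5 to 8), whose meaning is not stated. Limma 3.58.1 (R 4.3.3; lmFit, eBayes) fitted group and array set on each table, with Benjamini-Hochberg adjustment over all features. Every adjusted p is limma's. The scripts were tested on simulated data. The number of arrays limits the precision. Same-numbered mice of both groups deviated together from their group means (r 0.296 to 0.487 over 8 pairs), less so after array set was also removed (r -0.0513 to 0.246). The pairing comes from these values, not the labels, and a fit with the replicate number as a block was run.

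Members and lists were chosen with earlier results of these data known. Named were called features, the 10 probe sets with the largest difference in each direction and one sign in both array sets, the 8 largest gene medians in each direction, the 6 smallest gene-level p in each direction, role list members, 3 genes on each side of the limit, and Ttr with its markers. Probe sets of smallest p and single probe sets within named genes were chosen after their values were seen. Alternatives changed centring, normalization, moderation, filter, summary, covariate and mice.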

Additional observations from a re-analysis of the deposited data

Results flagged for a closer look

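In 130 groups of 8 mice over 65 named items, 6 held a value whose distance to its neighbour was over 0.526 of the group's range, where chance gives about 1 in 20. A Pik3c3 probe set read 6.09 in ISCL4 replicate 6, with the next mouse at 7.72. A Dsc1 probe set read 2.75 in ISCL4 replicate 3, below 4.20 in the next, in the dim range. A Wdr33 probe set (4447038) read 9.36 in ISCL4 replicate 5, with the next at 9.63. An Arhgap12 probe set read 8.19 in FVB-like replicate 5, above 7.18 in the next. The gene median of Mep1b was 3.74 in FVB-like replicate 2, below 4.44, and that of Map3k8 was 6.603 in FVB-like replicate 6, above 6.18. The flagged mice were 6 different ones, and none was excluded.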

How the results depend on the processing

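The counts of called members were 0 in most settings and 1 in 6. Trend and robust moderation called 1 probe set (in Apc, with 273 calls in the whole table), 1 gene median (Camk4, 43 calls in all) and 1 gene-level feature (Nrep, 102 in all). Leaving out features under the 25th percentile, FVB-like replicate 1 or ISCL4 replicate 2 also called 1 gene-level feature, Nrep. Over the 16 fits that each left out 1 mouse, the counts ranged from 0 to 0 for probe sets and gene medians and from 0 to 1 for gene-level features, and the median difference of member probe sets from -0.0263 to -0.0145. The replicate block, in place of array set, called 0 members and gave fewer calls over all features: 30 probe sets, 18 gene-level features and 2 gene medians, where the fit without it gave 47, 49 and 9. Direction and side of the threshold were kept in 69 of 69 results on the members. Without an array set covariate the calls over all features were 23, 15 and 5, in array set A alone 1, 0 and 0, in array set B alone 13, 5 and 6, and without features under the 25th percentile 99, 84 and 21. Leaving out single mice gave 26 to 47, 19 to 66 and 3 to 11. Gene medians taken as means of probe sets or over brighter probe sets gave 47 and 18 calls, and median centring 14.

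Over 65 named items and 24 settings, 1528 of 1543 values kept both direction and side of the threshold, 6 passed it and 9 reversed. The reversals were of small medians: Apc was 0.18 in array set B alone, 0.0244 after quantile normalization and -0.038 to 0.0256 without single mice, and Esco1 was 0.0323 in array set A alone. The cause was not tested. Signal near background and 8 mice per group limit what can be told of dim members.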
